A study of Mus musculus with 8 samples.

Results

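Vegfa, Slc2a1, Ldha, Pgk1, Pdk1, Bnip3, Ankrd37, Egln3, Adm and Aldoa are 10 genes that cells use to answer low oxygen and to run glycolysis, and their RNA was measured in the cortex of mouse embryos with and without ErbB4, the neuregulin receptor tyrosine kinase. They were chosen by symbol. All 10 are among the 23284 gene symbols of the count files, and all 10 are among the 14696 genes that had enough reads to be tested.

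When oxygen is short, prolyl hydroxylases stop marking the HIF-α proteins for destruction, and HIF-α pairs with its partner ARNT to bind short DNA elements near its target genes. The targets move glucose into the cell, speed its conversion to lactate, hold pyruvate back from the mitochondrion, call in blood vessels, and include a hydroxylase that feeds back on HIF itself. The embryonic cortex is a tissue of new neurons and of dividing progenitors, which are known for their use of glycolysis while the vessel network is still growing in.

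RNA-seq was performed on dorsal cortex of C57BL/6 embryos at E15.5, with 4 libraries labelled WT and 4 labelled ErbB4 KO. Meninges and ganglionic eminences had been dissected away, RNA was selected by its polyA tail, and the single-end libraries did not keep the strand. The study describes its ErbB4 KO mice as null for ErbB4 and kept alive by a transgene that expresses ErbB4 in the heart from the α-MHC promoter. Both genotypes were bred as homozygous lines, so WT and ErbB4 KO embryos were not littermates. The labels give no litter, dam or sex, and do not say that each library is a separate embryo, so p-values measure the spread between these libraries only.

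The stretches of promoter shown here are from genes that the results turn on, and they hold the core letters of the element to which HIF binds. The search took in the 250 bases before each RefSeq transcript start (GRCm38.p6) and looked on both strands for ACGTG and GCGTG (matches may share letters, and both strands of CACGTG hold ACGTG). In the printed strand, 5′ to 3′ towards the gene, capitals mark a match, so CACGT and CACGC are matches read from the other strand. The stretches are chr4:119108669-119108728 (plus strand) for Slc2a1, chr7:46845644-46845789 (plus) for Ldha, chrX:106186935-106186988 (plus) for Pgk1, chr7:138909522-138909638 (minus) for Bnip3, chr12:54204084-54204118 (minus) for Egln3 and chr7:110627552-110627622 (plus) for Adm.
Slc2a1: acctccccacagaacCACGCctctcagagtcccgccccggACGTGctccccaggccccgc
Ldha: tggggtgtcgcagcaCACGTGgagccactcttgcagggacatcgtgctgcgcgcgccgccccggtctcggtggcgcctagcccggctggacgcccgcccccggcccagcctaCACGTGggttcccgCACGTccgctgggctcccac
Pgk1: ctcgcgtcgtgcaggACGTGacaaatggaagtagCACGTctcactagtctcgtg
Bnip3: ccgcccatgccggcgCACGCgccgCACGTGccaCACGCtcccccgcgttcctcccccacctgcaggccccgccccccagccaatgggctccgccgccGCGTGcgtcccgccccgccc
Egln3: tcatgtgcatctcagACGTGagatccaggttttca
Adm: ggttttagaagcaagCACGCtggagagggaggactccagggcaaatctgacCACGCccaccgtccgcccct

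Each of the 10 genes had a match before at least 1 of its starts, in 12 of their 15 windows (80%), against 12679 of all 32851 windows (38.6%). Counted by gene, 11226 of 27025 genes (41.5%) had one. Ldha (first start) and Bnip3 had the most matches, 5 each. In Ldha all 5 were ACGTG, and they lay 145, 144, 48, 47 and 34 bases before the start. Egln3 had a single match, 229 bases before its start. A match of 5 letters is a description of the sequence, and the RNA counts do not show whether a factor was bound there.

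The targeted gene did not separate the labels. Erbb4 had 8.99, 19.9, 25.3 and 19.2 CPM in WT replicates 1 to 4 and between 20.7 and 24.6 CPM in the ErbB4 KO libraries, so genotypes here are those of the labels. Which part of Erbb4 the null allele lacks was not given in the sources used here, and a count summed over the gene cannot show a lost exon. Counted reads were from 28205703 to 48871480 per library, and CPM values were scaled by edgeR's TMM factors. The cortex markers Emx1, Tbr1 and Neurod6 were detected in every library. Xist was high in WT replicates 1 to 3 (from 983 to 1687 CPM) and at most 3.82 CPM in the other 5 libraries, so XX embryos occur among the WT libraries only. Of 10 red blood cell markers, Hba-a1, Hba-a2 and Hbb-b2 were at 0 in all 8 libraries. Of their 50-nucleotide windows, 78%, 71.7% and 43.9% also occur elsewhere in the genome, and 143, 143 and 367 windows occur nowhere else. The cause of these zeros was not tested, and they do not show that blood was absent. The summed level of the list was from 33.2 to 58.1 CPM in WT and from 23.2 to 36.7 CPM in ErbB4 KO. Within that list the embryonic globins Hbb-y and Hba-x averaged 26.6 and 6.24 CPM in WT and 8.20 and 2.71 CPM in ErbB4 KO, with log2 fold changes of -1.72 and -1.23 and unadjusted p-values of 0.0027 and 0.0022 in edgeR, while Alas2, of haem synthesis, was at 0.21. Neither globin was called, and ErbB4 KO replicate 4 was above WT replicate 4 in both. The 8 endothelial markers summed to between 138 and 152 CPM in WT and between 134 and 146 CPM in ErbB4 KO. Any part of sex or of blood and vessel content in the values of the 10 genes was not tested apart from the fits by Xist.

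None of the 10 genes passed the test for a difference between the genotypes. With an adjusted p under 0.05 in edgeR's quasi-likelihood test, 0 of 10 were called, against 4 of 14696 genes (0.0272%), and the counts from DESeq2 and limma-voom were also 0 of 10. At an unadjusted p under 0.05, 1 of 10 was counted in each of these tools, and in edgeR the share over all genes was 5.53%. That gene was Egln3. The CPM values of the 2 groups overlapped in all 10 genes, while the groups did not overlap in 3.34% of all genes tested. Of the 10 log2 fold changes of ErbB4 KO over WT, 5 were above 0 and 5 below, with a median of -0.02 (all genes: -0.0022) and a range from -0.12 to 0.32. With each library left out in turn, the value was from 0.07 to 0.16 for Vegfa, from -0.12 to -0.015 for Slc2a1 and from -0.16 to -0.05 for Pgk1, the lowest sizes being without WT replicate 3, WT replicate 1 and WT replicate 1. In bulk tissue, fewer cells of a type and less RNA per cell cannot be told apart, and this holds for every value given here.

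**Figure D1:**
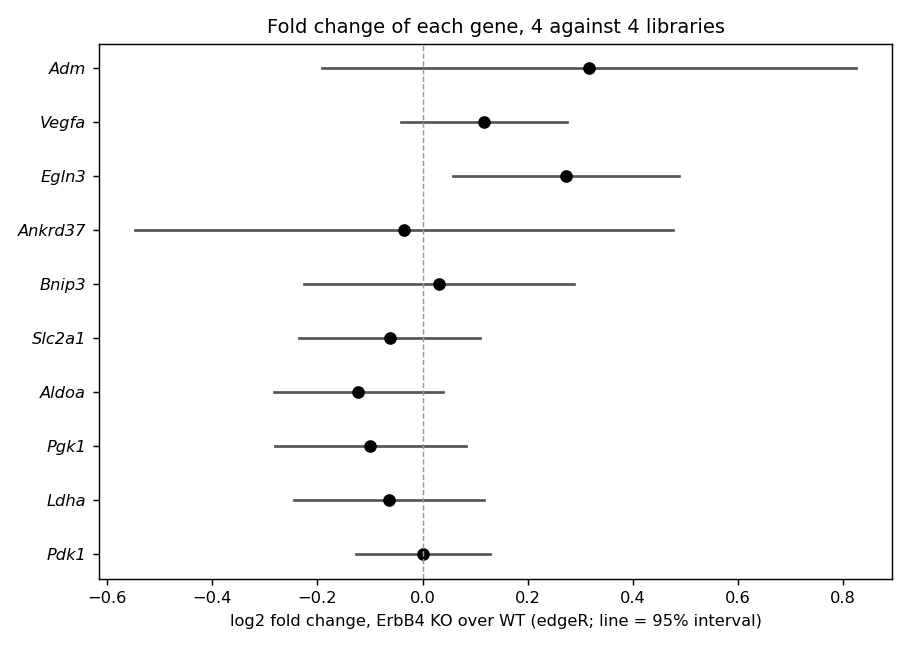
Log2 fold change of ErbB4 KO over WT for each of the 10 genes from edgeR (points) with its 95% interval (lines), 4 against 4 libraries. The interval includes 0 in every gene except Egln3, whose interval is not adjusted for the number of genes tested.

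The secreted signals among these genes are Vegfa, which draws blood vessels into the tissue, and Adm, which encodes the vasoactive peptide adrenomedullin. Vegfa (mm9 chr17:46153942-46169326, minus strand) had 55.5, 62.3, 51.2 and 57.7 CPM in WT replicates 1 to 4 and 60.2, 64.4, 64.1 and 57.1 CPM in ErbB4 KO replicates 1 to 4. The means were 56.7 ± 4.60 and 61.4 ± 3.49 CPM (SD, n = 4 each), a ratio of 1.08 with a 95% interval from 0.972 to 1.21. WT replicate 3 was the lowest library and ErbB4 KO replicate 2 the highest, and WT replicate 2 lay above ErbB4 KO replicates 1 and 4. Adm (chr7:117771175-117773331, plus strand) was the gene of lowest count, with 46 to 109 reads per library. Its levels were 2.60, 1.83, 1.20 and 1.42 CPM in WT and 2.21, 1.84, 2.20 and 2.45 CPM in ErbB4 KO. WT replicate 1 was above every other library, and the other WT libraries were all below every ErbB4 KO library. The log2 fold change was 0.32 (SE 0.23, unadjusted p = 0.198, adjusted p = 0.81 in edgeR). Without WT replicate 1 it was 0.56, with an unadjusted p of 0.0179 and an adjusted p of 0.811 in edgeR. Without WT replicate 3, the lowest library, it was 0.16, with an unadjusted p of 0.483 and an adjusted p of 0.839. Adm was at 0.55 with Xist as a covariate and 0.61 between the libraries with low Xist, with unadjusted p-values of 0.198 and 0.0653 in edgeR.

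Among 12 other genes of VEGF and adrenomedullin signalling, 0 were called, and 2 were higher and 1 lower at an unadjusted p under 0.05 (edgeR), against 5.53% of all genes in either direction. The highest log2 fold change of the list was in Ramp3, which encodes a receptor partner of adrenomedullin, at 0.35 (SE 0.15, adjusted p = 0.81), and was 0.54 between the libraries with low Xist. The lowest was in Vegfc, a ligand of lymphatic vessels, at -0.37 (SE 0.14, adjusted p = 0.81), with 4.53 to 5.94 CPM in WT and 3.18 to 4.51 CPM in ErbB4 KO. Vegfc and Nrp1, which encodes a co-receptor of VEGF and semaphorins, were the 2 genes of 12 whose groups did not overlap, against 3.34% of all genes tested. Nrp1 was picked out after its values were seen. It had 138, 162, 154 and 160 CPM in WT and 175, 199, 194 and 163 CPM in ErbB4 KO, for a log2 fold change of 0.25 (SE 0.075, unadjusted p = 0.0059, adjusted p = 0.81 in edgeR). Between the 5 libraries with low Xist, the log2 fold changes of Vegfc and Nrp1 were -0.20 and 0.19, with adjusted p-values of 0.924 and 0.911. The summed level of the list was 390 CPM in WT replicate 1 and from 438 to 473 CPM in the other WT libraries. In ErbB4 KO it was from 456 to 511 CPM. The median of the list was 0.12, and 9 of its 12 genes were above 0, against 49.2% of all genes tested. Of 8 endothelial markers, 3 were above 0 and 5 below, with a median of -0.03. Of 5 pericyte markers, 4 were above 0, with a median of 0.16. Their summed level was 72.2, 95.2, 92.8 and 93.2 CPM in WT replicates 1 to 4. In ErbB4 KO replicates 1 to 4 it was 79.6, 100.5, 85.3 and 84.8 CPM. Apart from WT replicate 1, every WT library was above ErbB4 KO replicates 1, 3 and 4. Pdgfrb was at 0.18 and was the 1 pericyte marker of 5 whose groups did not overlap (3.34% of all genes tested), and Rgs5 was at -0.29. The part of the endothelial and pericyte markers in the values of the list was not tested.

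Egln3 encodes a prolyl hydroxylase that marks HIF-α for destruction and is itself induced by HIF. On chr12:55279968-55304847 (mm9, minus strand), it had 14.6, 12.1, 13.7 and 13.8 CPM in WT replicates 1 to 4 and 16.2, 16.2, 18.7 and 14.3 CPM in ErbB4 KO replicates 1 to 4. Of the ErbB4 KO libraries, 3 lay above every WT library, and replicate 4 lay between WT replicates 1 and 4. The means were 13.6 ± 1.05 and 16.4 ± 1.81 CPM (SD, n = 4 each), a ratio of 1.21 with a 95% interval from 1.04 to 1.40 before any adjustment for the number of genes. The log2 fold change was 0.27 (SE 0.098, unadjusted p = 0.0169, adjusted p = 0.81 in edgeR). It stayed between 0.20 and 0.33 under every alternative, with adjusted p-values from 0.431 to 1.00. Without ErbB4 KO replicate 3 the unadjusted p was 0.0665 and without WT replicate 2 it was 0.0502, and between the libraries with low Xist (1 WT against 4 ErbB4 KO) the log2 fold change was 0.24 with an unadjusted p of 0.135 (all edgeR).

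The other oxygen sensors lay closer to 0. The log2 fold change was 0.02 for Egln1, the main HIF hydroxylase in most cells, and -0.11 for Egln2, the lowest of 13 genes of oxygen sensing and HIF. Without WT replicate 1 Egln1 was at 0.06 and Egln2 at -0.019, which was no longer the lowest. Hif1a, which encodes the widely expressed α subunit, had 209, 215, 236 and 218 CPM in WT and 206, 210, 214 and 227 CPM in ErbB4 KO. Epas1, the α subunit known from blood vessels, had the highest log2 fold change of the list, 0.18 (SE 0.090, adjusted p = 0.81), with 16.8 to 20.3 CPM in WT and 19.4 to 24.2 CPM in ErbB4 KO. Between the libraries with low Xist the value for Epas1 was 0.07. In this list 0 of 13 genes were called and 0 had an unadjusted p under 0.05 in edgeR, the groups overlapped in all 13, and the median log2 fold change was 0.02.

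Bnip3 encodes a protein of the outer mitochondrial membrane that sends mitochondria to autophagy. On chr7:146082519-146101202 (mm9, minus strand), it had 17.8, 14.1, 14.0 and 14.1 CPM in WT and 15.6, 17.7, 15.47 and 12.5 CPM in ErbB4 KO. WT replicate 1 stood above 3 closely spaced WT libraries, and ErbB4 KO replicates 2 and 4 were at the top and the bottom of their group. The ratio of the genotypes was 1.02, with a 95% interval from 0.855 to 1.22. Ankrd37, an ankyrin repeat gene used as a marker of HIF activity, varied most between libraries. It lies on chr8:47082256-47085221 (mm9, minus strand), shares exon sequence with Ufsp2 and Lrp2bp on the other strand, and reads without strand cannot be divided between them. Its levels were 7.35, 4.91, 4.14 and 3.36 CPM in WT and 4.75, 5.63, 5.43 and 3.30 CPM in ErbB4 KO, a 2.22-fold range. Its ratio of 0.976 had a 95% interval from 0.684 to 1.39, so any ratio within that interval stays compatible with these libraries. Without WT replicate 1 its log2 fold change went from -0.04 to 0.21, and neither value was called.

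Of 25 other genes that HIF is known to induce, 23 were tested, and Car9 and Epo had too few reads. Among the 23, 0 were called, 0 had an unadjusted p under 0.05 in edgeR, and the groups overlapped in all. The median log2 fold change was 0.03. Bnip3l, the near relative of Bnip3, had a log2 fold change of -0.0062 (SE 0.061) at 146 to 175 CPM in WT and 150.3 to 162 CPM in ErbB4 KO. The highest value of the list was in Lox, a collagen crosslinking enzyme, at 0.76 (SE 0.47, adjusted p = 0.81), where no library was above 1.43 CPM and the log2 fold change was 0.25 without ErbB4 KO replicate 3 and 1.25 between the libraries with low Xist. ErbB4 KO replicate 3, which held the highest level of Lox, also had the highest summed level of 6 meningeal markers, 14.5 CPM against 8.52 to 10.5 CPM in the other 7 libraries, with Col1a2 at 6.56 CPM against at most 3.08 CPM. Col1a1, Lum and Slc6a13 were also highest in that library, at 1.51, 0.717 and 0.282 CPM. Lum and Slc6a13 had too few reads to be tested. Dcn at 2.66 CPM and Foxc1 at 2.74 CPM were each inside the range of the other libraries. The part of these markers in the value of Lox was not tested. The lowest was in Mif, a small cytokine, at -0.20 (SE 0.10, adjusted p = 0.81), and Mif was at -0.09 without WT replicate 1.

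**Figure D2:**
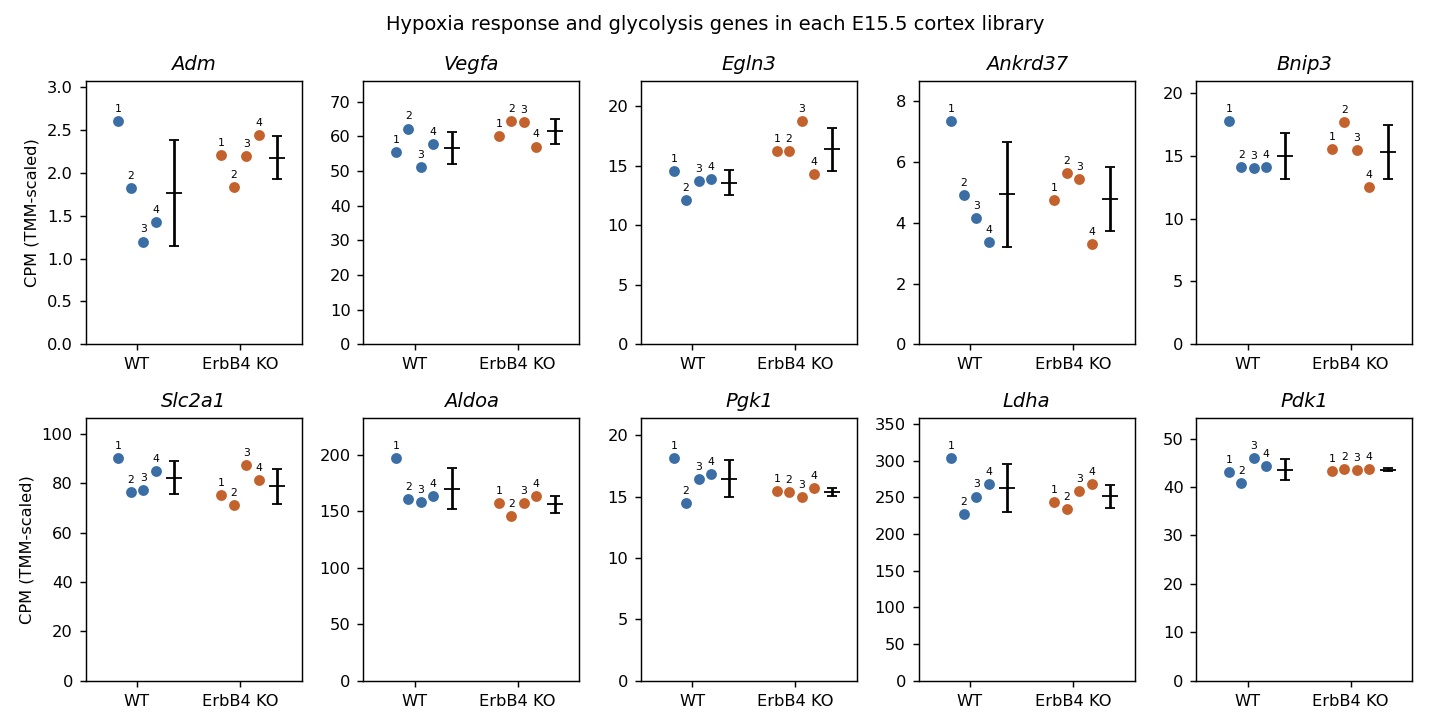
CPM of each gene in each library, WT (blue) and ErbB4 KO (orange), with replicate numbers above the points and the mean ± SD of 4 libraries as black bars, each axis starting at 0. The groups overlap in all 10 genes, and WT replicate 1 is the highest library in 7 of them.

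Glucose entry and glycolysis are represented by Slc2a1, Aldoa, Pgk1 and Ldha. Slc2a1, a glucose transporter known from the endothelium of the brain, lies on chr4:118781316-118809935 (mm9, plus strand) and shares exon sequence with Gm12868 on the other strand. It had 90.2, 76.4, 77.3 and 85.0 CPM in WT and 75.3, 71.1, 87.4 and 81.1 CPM in ErbB4 KO. The highest library was WT and the lowest ErbB4 KO, with the rest interleaved, and the ratio was 0.958 with a 95% interval from 0.850 to 1.08. Aldoa, the aldolase that splits fructose bisphosphate (chr7:133938748-133944265, minus strand), had 197, 160.3, 158 and 164 CPM in WT and 158, 146, 157 and 164 CPM in ErbB4 KO. Apart from WT replicate 1, the other 7 libraries lay within 146 and 164 CPM. Its log2 fold change was the lowest of the 10 genes, -0.12 (SE 0.073, unadjusted p = 0.122, adjusted p = 0.81 in edgeR), and was -0.04 without WT replicate 1.

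Pgk1 encodes phosphoglycerate kinase, the first enzyme of glycolysis to return ATP, and is X-linked (mm9 chrX:103382439-103399038, plus strand). It had 18.2, 14.5, 16.4 and 16.8 CPM in WT and 15.4, 15.3, 14.98 and 15.7 CPM in ErbB4 KO. The lowest library and the 3 highest were all WT, with the ErbB4 KO libraries between them. The ratio was 0.934 with a 95% interval from 0.823 to 1.06, and between the libraries with low Xist the log2 fold change was -0.13 (adjusted p = 0.911, edgeR). Ldha encodes the lactate dehydrogenase subunit that favours lactate (chr7:54096845-54110997, plus strand). Ldha had 304, 228, 251 and 268 CPM in WT and 243, 234, 259 and 269 CPM in ErbB4 KO, a ratio of 0.956 with a 95% interval from 0.844 to 1.08. WT replicates 1 and 2 were at the top and the bottom of all 8 libraries. Without WT replicate 1 the log2 fold change of Ldha went from -0.06 to 0.01.

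Of 15 other genes of glycolysis, all were tested and 0 were called, with 1 higher and 2 lower at an unadjusted p under 0.05 in edgeR (5.53% of all genes). The groups did not overlap in 1 of the 15, Slc2a3, against 3.34% of all genes tested. Slc2a3, the glucose transporter of neurons, had the highest value. It had 41.4, 44.4, 39.8 and 45.4 CPM in WT and 50.1, 58.4, 50.3 and 46.8 CPM in ErbB4 KO, so that every ErbB4 KO library was above every WT library. This was a log2 fold change of 0.27 (SE 0.078, unadjusted p = 0.0055, adjusted p = 0.81 in edgeR), and between the libraries with low Xist it was 0.18 (adjusted p = 0.911). The lowest value was in Tpi1, triosephosphate isomerase, at -0.21 (SE 0.090, adjusted p = 0.81), which was -0.11 without WT replicate 1. Pkm2, the other gene with an unadjusted p under 0.05, encodes pyruvate kinase and was at -0.18 (SE 0.073). It was picked out after its values were seen. Aldoc, the aldolase relative expressed in brain, was at -0.15 (SE 0.072) and at -0.25 between the libraries with low Xist, and the testis copy Pgk2 was at 0 in every library. The median of the list was -0.03.

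Pdk1 encodes a kinase that shuts pyruvate dehydrogenase and so keeps pyruvate out of the mitochondrion. It lies on chr2:71711281-71741915 (mm9, plus strand) and had 43.1, 40.8, 46.0 and 44.4 CPM in WT and 43.3, 43.7, 43.6 and 43.8 CPM in ErbB4 KO. The ErbB4 KO libraries all fell inside the range of the WT libraries. The means were equal to 3 digits, 43.6 ± 2.20 and 43.6 ± 0.234 CPM (SD, n = 4 each), and the ratio of 1.00 had the narrowest 95% interval of the 10 genes, from 0.916 to 1.09. The coefficient of variation of the ErbB4 KO libraries, 0.537%, was below the 2.44% that counting error alone gives at this number of reads.

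Among 11 other genes of pyruvate and lactate use, 0 were called and 1, Pdk3, was lower at an unadjusted p under 0.05 in edgeR (5.53% of all genes). Pdk3, an X-linked relative of Pdk1, had 27.9, 25.5, 28.9 and 27.4 CPM in WT and 22.5, 23.5, 24.4 and 23.8 CPM in ErbB4 KO. Pdk3 was the 1 gene of the 11 whose groups did not overlap, against 3.34% of all genes tested. Its log2 fold change was the lowest of the list, -0.22 (SE 0.068, unadjusted p = 0.0074, adjusted p = 0.81 in edgeR), and it was -0.22 between the libraries with low Xist as well (adjusted p = 0.911). Pdk2 and Pdk4 were at -0.06 and 0.16, with overlapping groups. Ldhb, whose product favours pyruvate, was at -0.18 (SE 0.095, adjusted p = 0.81), and at -0.06 without WT replicate 1. The highest value was in Slc16a7, a monocarboxylate transporter, at 0.36 (SE 0.19, adjusted p = 0.81), and at 0.19 without WT replicate 1. The median of the list was -0.04.

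**Figure D3:**
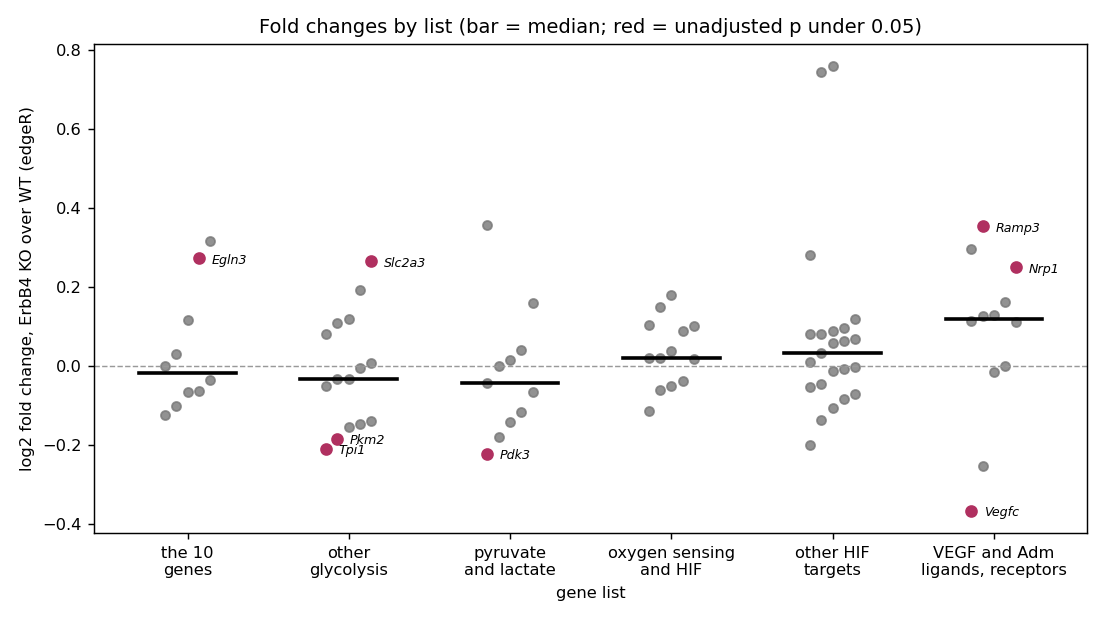
Log2 fold change of ErbB4 KO over WT (edgeR) for every tested gene of the 10 and of the 5 other lists, with the median of each list as a bar and genes of unadjusted p under 0.05 in red and named. No gene of these lists passed an adjusted p of 0.05, and the medians lie between -0.04 and 0.12.

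WT replicate 1 stood apart from the other libraries in many of these genes. It was the highest of the 8 libraries in 7 of the 10 genes (Slc2a1, Ldha, Pgk1, Bnip3, Ankrd37, Adm and Aldoa), against 29.9% of all genes tested. Over the 10 genes, with each centred on its own mean, the log2 CPM of this library averaged 0.21, and the other 7 libraries averaged between -0.12 and 0.09. In this library Ankrd37 at 0.64 and Adm at 0.43 were the largest, and the other genes lay between -0.09 and 0.28. It was above the gene's own mean in 7 of the 10 genes, and ErbB4 KO replicate 3 was in 8. WT replicate 1 also deviated from the mean of the libraries by transcript length. Its deviation had a Spearman's rho of -0.58 with length across genes, against values from 0.04 to 0.22 in the other libraries, where genes are not independent. The 7 genes have transcripts of 927 to 2607 nucleotides, and Vegfa, Egln3 and Pdk1, where WT replicate 1 was not highest, have 3528, 2662 and 5185. With the trend with length taken out of each library, WT replicate 1 was highest in 5 of the 10 genes, against 29.4% of all genes. These were Slc2a1, Ldha, Ankrd37 and Aldoa of the 7, and Pdk1. Without this library, Egln3 and Adm had an unadjusted p under 0.05 in edgeR and 0 of 10 genes were called.

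**Figure D4:**
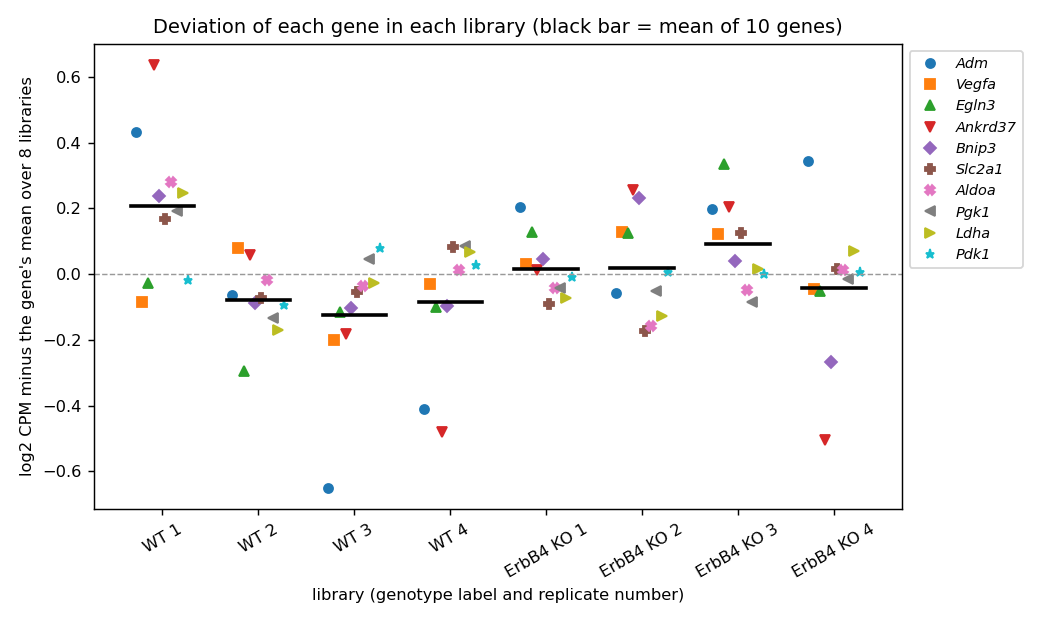
Log2 CPM of each gene in each library, as the difference from that gene's mean over the 8 libraries (points), with the mean of the 10 genes as a black bar. The mean of WT replicate 1 is 0.21, and those of the other libraries lie between -0.12 and 0.09.

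Lamp1, Mllt11 and Agpat4 had the profile over libraries most like the mean of the 10 genes, out of 10132 genes with at least 10 CPM. Pearson's r over the 8 libraries was 0.987 for Lamp1, which encodes a lysosomal membrane protein, 0.968 for Mllt11 and 0.967 for Agpat4, an acyltransferase. Spearman's rho was 0.976, 0.952 and 0.905. Without WT replicate 1, which was the highest library in all 3, r was 0.971, 0.920 and 0.917. These genes were chosen for their likeness, and all points share the same 8 libraries. The mean of the 10 genes is moved most by Ankrd37 and Adm, whose ranges between libraries were the widest (2.22-fold and 2.17-fold).

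Some of these genes share much of their transcript with other places in the genome. A 50-nucleotide read was the unit sequenced, so every 50-nucleotide window of the longest coding transcript was searched for in the mm9 genome by exact match. In Pgk1, 1650 of 1776 windows (92.9%) also occur elsewhere, and of its 1205 coding windows 0 are unique. The copy with the most windows, 1647, is Pgk1-rs7 on chr12:10905372-10907119. In Bnip3 61.7% of windows occur elsewhere, most of them in Gm16439 on chr14:45216346-45217837, and 141 of 515 coding windows are unique. The share was 29.1% in Ldha and 14.8% in Aldoa, and at most 0.316% in the other 6 genes. The 2 windows shown here are coding sequence that a read could have come from and that other places in the genome hold too, 3 others for each gene. They are bases 1078 to 1127 of the Pgk1 transcript and 219 to 268 of the Bnip3 transcript.
Pgk1: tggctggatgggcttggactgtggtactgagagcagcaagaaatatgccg
Bnip3: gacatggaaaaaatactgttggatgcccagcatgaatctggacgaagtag

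On the scale of CPM per kb of transcript (mean of 8 libraries), Ldha was the most abundant of the 10 at 146, followed by Aldoa at 105, Slc2a1 at 30.9 and Vegfa at 16.7, and the ranges of these 4 over the libraries did not overlap. Pgk1 at 8.72, Bnip3 at 8.63 and Pdk1 at 8.41 had overlapping ranges and cannot be put in order. Egln3 at 5.62 and Ankrd37 at 5.24 overlapped as well, the range of Ankrd37 also reached those of Bnip3 and Pdk1, and Adm was lowest at 1.42. Per kb of windows found nowhere else, Pgk1 was at 126, beside 127 for Aldoa and 211 for Ldha, and Bnip3 was at 23.2. Gapdh, with 85.6% of windows elsewhere, was at 15.53 per kb of transcript and 112 per kb of unique windows, and Pgam1, with 91.9%, was at 5.06 and 63.9. Eno1, with 72.2%, stayed low on both scales, at 0.63 and 2.33. These 3 enzymes were picked out after their values were seen. How the authors counted reads that fit several places was not given in the sources used here, so the level of Pgk1 and Bnip3 against other genes is uncertain. A comparison of the same gene between libraries has the same windows in both groups, provided the copies are not themselves expressed differently, which was not tested.

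**Figure D5:**
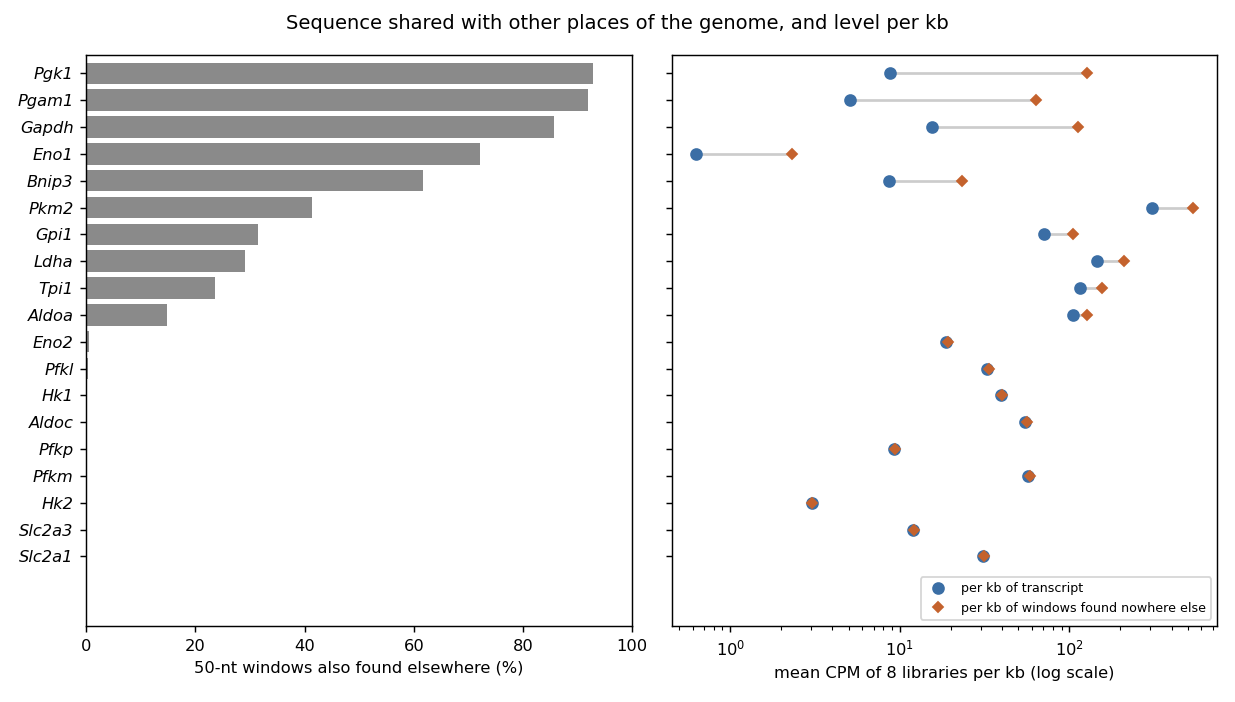
Left, share of 50-nucleotide windows of the longest coding transcript that also occur elsewhere, for glucose transporters, glycolytic enzymes and Bnip3. Right, mean CPM of 8 libraries per kb of transcript (circles) and per kb of windows found nowhere else (diamonds), on a log axis, where Pgk1 goes from 8.72 to 126 and Slc2a1 from 30.9 to 31.5.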

How the data were processed

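HISAT (mapping, to mm9), HTSeq (counting) and DESeq2 are the tools the authors name, and their deposited files hold raw counts, 1 whole number per gene symbol in each of 8 libraries. Tool versions, gene annotation and counting mode were not given in the sources used here. A deposited table of the authors' DESeq2 comparison (fold changes, p-values) was not used.

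Groups were taken from the labels. Counts of all genes were fitted with edgeR 4.0.16 in R 4.3.3 (TMM, filterByExpr at its minimum count (10) and minimum total (15), glmQLFit, glmQLFTest, Benjamini-Hochberg over 14696 genes, threshold 0.05), and standard errors were derived from the F statistic. CPM use TMM-scaled library sizes, and log2 CPM a prior count of 2. Depth was from 28205703 to 48871480 counts, so counting error on the 10 genes ranges from 1.02% (Ldha, ErbB4 KO) to 13.3% (Adm, WT). Alternatives were DESeq2 1.42.0, limma-voom (limma 3.58.1), other scaling, no or stricter filtering, a replicate block, Xist as a covariate, only libraries low in Xist, a length trend removed by a spline, and each library left out. The fit was also run on simulated data, and no result given here rests on that run.

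Gene positions and windows used GENCODE for NCBIM37 (mm9), and promoters RefSeq for GRCm38.p6, in which all 10 symbols matched. Named were the 10 genes, Erbb4, in each other list called genes and the highest and lowest log2 fold change, close relatives, Hif1a and Epas1, and the 3 genes of most similar profile. Other genes (Nrp1, Pkm2, Gapdh, Pgam1, Eno1 and the marker genes named) were picked after their values were seen. Members and lists were chosen with earlier results of these data known. Python 3.11.15 with matplotlib 3.10.9 made the figures.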

Additional observations from a re-analysis of the deposited data

Results flagged for a closer look

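Bnip3 in WT replicate 1, at 17.8 CPM, stood far from the other WT libraries, of which the next was at 14.1 CPM. Aldoa in the same library, at 197 CPM, also stood far from the next WT library, at 164 CPM. Each gene's WT and ErbB4 KO libraries were examined, 20 groups of 4 in all, and chance alone sets such a library apart in about 1 in 20 groups. Both values come from the library that was highest in 7 of the 10 genes, so they are not independent.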

How the results depend on the processing

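Under each of the 18 alternatives, 0 of the 10 genes and 0 genes of the 5 other lists were called, and 163 of 180 log2 fold changes kept their direction. The 17 that changed sign were in 4 uncalled genes, and the cause was not tested. Pdk1 was at -0.00060 with no filter, -0.024 with Xist as a covariate, -0.026 with only libraries low in Xist and -0.056 with the length trend removed. Ankrd37 was at 0.026 in limma-voom, 0.46 with Xist as a covariate, 0.51 with only libraries low in Xist and 0.044 with the length trend removed. With each library left out in turn, log2 fold changes were from -0.13 to 0.012 for Ldha, -0.029 to 0.028 for Pdk1, -0.045 to 0.12 for Bnip3 and -0.18 to 0.21 for Ankrd37. At an unadjusted p under 0.05, edgeR counted Egln3 and Adm without WT replicate 1, Vegfa alone without WT replicate 2, and no gene of the 10 without ErbB4 KO replicate 3 or in either fit by Xist. Only libraries low in Xist leave 1 WT library, which is assumed to vary like the others.

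With a replicate block, 0 of the 10 genes were called and 1 gene of all those tested, against 4 without it. At an unadjusted p under 0.05 in edgeR, 6.97% of all genes were counted with the block and 5.53% without it. Same-numbered libraries had correlations of deviations of 0.08, 0.13, 0.05 and 0.02. Those of differently numbered libraries ranged from -0.19 to 0.15. The labels do not say that the numbers mark pairs, and the main fit did not take them as pairs. These correlations cannot decide the question. Over all genes, DESeq2 called 23. Counting error limits Adm and Ankrd37 most.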
